A study of Mus musculus with 6 samples.

Results

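Acute phase proteins are the secreted liver proteins whose output changes during inflammation, and interleukin 6 (IL-6) is the main cytokine that sets it in hepatocytes. They were followed here with the IL-6 pathway as a set of 38 genes, chosen by name with earlier results of these data known. The set held 1 ligand, 4 receptor subunits, 3 kinases with the transcription factor STAT3, 5 inhibitors and 24 secreted proteins. All 38 were measured, out of 12393 genes, and each was represented by its brightest probe set over the 6 arrays. The arrays held RNA of freshly isolated liver parenchymal cells (primary hepatocytes), from untreated cultures harvested 24 h after plating on collagen. The transgenic group had 3 arrays, from Alb/AEG-1 mice, which carry an AEG-1 transgene for hepatocytes (AEG-1, astrocyte elevated gene 1, is the product of Mtdh), and the wild-type group had 3 arrays from mice of the same mixed B6/CBA strain. The labels call the replicates biological but do not say whether they came from separate animals or cultures, and give no age or sex, so p-values refer only to the spread among these 6 samples. The name of the line refers to the albumin gene, Alb, whose promoter is widely used to drive transgenes in hepatocytes, and Alb itself is one of the 38 genes.

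IL-6 binds its receptor subunit Il6ra, and the pair recruits the shared signal transducer gp130, encoded by Il6st. The kinases Jak1, Jak2 and Tyk2 then phosphorylate STAT3, which enters the nucleus and induces acute phase genes together with C/EBP factors, and with NF-kB for the genes that also answer to IL-1. Socs3 is induced by STAT3 and shuts gp130 signalling off. Proteins that rise in this response, such as serum amyloid A and haptoglobin, are called positive acute phase proteins, and those that fall, such as albumin, are called negative.

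The promoter sequences of 32 of the 38 genes were at hand, from RefSeq on build GRCm38.p6, and 6 are shown because they carry the letter patterns that this response is known for. Each is the 250 bases before the annotated start, 5′ to 3′ on the strand of the gene, and capitals mark matches to any of 3 patterns. These are TTCNNNGAA, bound by STAT factors, TTGCNNAA, bound by C/EBP factors, and GGG followed by any 2 bases and TTTCC, bound by NF-kB, each searched on both strands with N as any base.
Il6, chr5:30012864-30013113, plus strand: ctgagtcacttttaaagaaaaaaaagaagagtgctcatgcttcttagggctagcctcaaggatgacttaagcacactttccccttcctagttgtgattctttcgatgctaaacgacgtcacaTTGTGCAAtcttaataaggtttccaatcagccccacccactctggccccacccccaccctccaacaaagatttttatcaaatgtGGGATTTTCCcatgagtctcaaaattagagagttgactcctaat
Saa3, chr7:46715677-46715926, minus strand: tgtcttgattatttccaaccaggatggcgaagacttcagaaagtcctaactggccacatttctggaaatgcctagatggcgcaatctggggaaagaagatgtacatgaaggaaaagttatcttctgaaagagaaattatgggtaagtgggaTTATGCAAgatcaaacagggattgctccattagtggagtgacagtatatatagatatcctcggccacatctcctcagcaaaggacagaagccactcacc
Saa1, chr7:46742981-46743230, minus strand: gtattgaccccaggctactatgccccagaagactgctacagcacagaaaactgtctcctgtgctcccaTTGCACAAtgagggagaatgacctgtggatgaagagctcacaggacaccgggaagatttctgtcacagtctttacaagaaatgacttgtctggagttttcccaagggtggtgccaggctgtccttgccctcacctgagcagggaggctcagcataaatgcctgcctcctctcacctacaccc
Saa2, chr7:46751583-46751832, plus strand: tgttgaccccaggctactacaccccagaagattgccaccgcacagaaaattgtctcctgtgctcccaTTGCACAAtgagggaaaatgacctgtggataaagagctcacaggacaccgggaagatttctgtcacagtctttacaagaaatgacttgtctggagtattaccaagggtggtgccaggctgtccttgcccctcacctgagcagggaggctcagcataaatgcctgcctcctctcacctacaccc
Socs3, chr11:117969367-117969616, minus strand: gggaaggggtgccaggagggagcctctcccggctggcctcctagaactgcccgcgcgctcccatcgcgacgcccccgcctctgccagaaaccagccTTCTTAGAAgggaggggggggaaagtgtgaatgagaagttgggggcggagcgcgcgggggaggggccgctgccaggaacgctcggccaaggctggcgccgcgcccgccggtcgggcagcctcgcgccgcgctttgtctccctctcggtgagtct
Apcs, chr1:172895055-172895304, minus strand: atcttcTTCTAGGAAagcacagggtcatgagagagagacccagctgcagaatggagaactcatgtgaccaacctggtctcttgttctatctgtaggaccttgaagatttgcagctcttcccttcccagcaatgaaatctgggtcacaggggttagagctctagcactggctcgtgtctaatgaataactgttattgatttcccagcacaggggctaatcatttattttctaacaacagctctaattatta

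The Il6 window held 1 C/EBP match and 1 NF-kB match, and the Saa3, Saa1 and Saa2 windows held 1 C/EBP match each. Socs3 and Apcs held the STAT pattern. The Saa1 and Saa2 windows were 94.8% identical in a gapped alignment, while Saa1 and Saa3 shared 52.2%. Among all 32 genes the STAT pattern was found in 3 (Apcs, Itih4 and Socs3; 9.38%), where 7.02% of 32851 promoter windows of that length hold it. The C/EBP pattern was found in 12 genes (37.5%, against 9.56% of all windows) and the NF-kB pattern in 2, Il6 and Fetub (6.25%, against 1.41%). Matches of different patterns overlapped in 0 of these genes. A match describes letters, not a bound site.

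The arrays were alike in overall level, with medians from 5.61 to 5.64 on the log2 scale, and correlated across genes at 0.9976 to 0.9982 within a genotype and 0.9933 to 0.9940 between genotypes. Mtdh rose by 1.92 (SE 0.10, limma adjusted p = 2.04e-05) at its brightest probe set, while its other 5 probe sets gave -0.27 to 0.24 and the mean of its probe sets 0.28. All 11 measured hepatocyte markers averaged 11.24 or more, with summed linear signals of 163491 to 166310 in wild-type and 166621 to 168308 in transgenic arrays. The sums were thus higher on every transgenic array, and 1 of the 11 markers rose (Pck1, by 0.30, limma adjusted p = 0.0150). The 3′ minus 5′ difference of the Gapdh control ran from 0.10 to 0.11 in transgenic and from 0.01 to 0.13 in wild-type arrays. Of other cell types, 1 of 11 stellate cell markers rose (Lum), 1 of 5 cholangiocyte markers (Epcam, by 1.52) and 0 of 9 lymphocyte markers (0 by limma, 1 at an unadjusted p under 0.05). In bulk RNA of this kind, fewer cells of a type and less RNA per cell cannot be told apart. Levels below are log2 units, differences are transgenic minus wild type in log2 units, and a gene is said to have risen or fallen when limma gave an adjusted p under 0.05.

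Of the 38 genes 16 rose, 0 fell and 22 did not pass. The background was 15.9% of all 12393 genes called, 6.83% higher and 9.05% lower. As the genes were chosen with earlier results known, such shares describe the set and do not test it. The members' median difference was 0.15, against 0.01 over all genes, and 34 of 38 differences were positive, against 53.1% of all genes. For 25 members the transgenic and wild-type arrays were fully separated, each of them higher in transgenic cells, where 16.9% of all genes were separated in that direction and 34.5% in either. The risen genes were the ligand Il6, the receptor subunit Lifr, the inhibitors Socs1, Socs2 and Cish, and 11 secreted proteins. Of the 16, 4 reached 1.5-fold (Il6, Lifr, Socs1 and Saa3), a size that 1.37% of all genes reached upward. At an adjusted p under 0.01, 10 members were higher, against 3.16% of all genes. With 1 array left out 10 to 14 of the 16 calls remained, the fewest without wild-type replicate 3, and 11 without transgenic replicate 1 or 2.

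Il6 read 6.12, 5.92 and 5.998 in the transgenic arrays and 4.55, 4.03 and 4.08 in the wild-type arrays. The lowest transgenic array lay 1.37 above the highest wild-type array. That is a 3.48-fold increase, with a difference of 1.80 (SE 0.13, 95% confidence interval 1.49 to 2.11, adjusted p = 0.00011). Wild-type values lay under the array median, where signal is near background and a fold is less certain. IL-6 is made by macrophages as well as by other liver cells, and Kupffer cell and macrophage markers were read beside it. Of 13 measured of 14 listed, 3 rose (Ptprc, Marco and C1qc, by 0.61, 0.69 and 0.35) and 1 fell (Cd14, -0.45). Their summed linear signal overlapped between genotypes, at 1926 to 1994 in transgenic and 1879 to 2056 in wild-type arrays. Cd14, the only one that fell, was the brightest of the 13 and so weighed most in those sums. Of the 13 differences 11 were positive, with a median of 0.16, against 53.1% positive and a median of 0.01 over all genes. For 8 of the 13 the arrays were separated with the transgenic ones higher, against 16.9% of all genes. The Kupffer cell marker Clec4f gave a difference of 0.06 and did not pass. RMA values have no zero, and 2 of the 13, Marco and Ptprc, lay under the median gene. Sinusoidal endothelial markers had 2 of 10 risen, Clec4g by 0.50 and Kdr by 0.41, where 6.83% of all genes were called higher and 9.05% lower. Their sums did not overlap, at 719.9 to 759.0 in transgenic against 580.6 to 640.7 in wild-type arrays. Cholangiocyte sums did not overlap either (327.7 to 346.9 against 283.7 to 297.1), nor did the hepatocyte sums given above. The part of macrophages or other cell types in the Il6 result was not tested.

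The receptors of the pathway gave 1 rise among 4. Lifr, the receptor subunit for leukaemia inhibitory factor, which pairs with gp130, read 11.79, 11.89 and 11.76 in transgenic and 10.47, 10.55 and 10.46 in wild-type arrays. All transgenic arrays lay at least 1.21 above the wild-type ones, a 2.50-fold increase (1.32, SE 0.06, adjusted p = 8.99e-06). That rise was carried by 1 of 3 Lifr probe sets. The mean of the 3 gave 0.33 (adjusted p = 0.00568). The other 2 gave -0.07 and -0.27 (adjusted p = 0.691 and 0.159 with every probe set tested), and at the latter the arrays were separated with the transgenic ones lower. Mouse Lifr is known to give a transcript for a secreted form of the receptor beside the membrane form, and which transcript each probe set detects was not tested.

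Il6ra, the IL-6 binding subunit, did not pass. Its transgenic arrays read 7.85, 7.86 and 7.84 and its wild-type arrays 7.69, 7.68 and 7.74, separated but by 0.10 at the gap. The difference was 0.14 (SE 0.05, adjusted p = 0.105). Il6st, which encodes gp130, read 8.90, 9.02 and 8.88 against 9.06, 8.96 and 8.94. These overlap, and the interval of the difference ran from -0.20 to 0.10. A dimmer Il6st probe set, at 5.91 against 5.63, passed as higher (0.28, adjusted p = 0.0469 with every probe set tested), and the third gave -0.08. Osmr, the subunit that binds oncostatin M, was dim at 4.81 ± 0.13 against 4.55 ± 0.25 (SD, n = 3) with overlapping arrays and a difference of 0.26 (adjusted p = 0.227).

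None of the 3 kinases or STAT3 passed (0 of 4 by limma, and 0 at an unadjusted p under 0.05). Stat3 read 10.12, 10.10 and 10.06 in transgenic and 10.03, 10.14 and 9.91 in wild-type arrays. The ranges overlapped, and the difference of 0.07 had an interval of -0.09 to 0.23. Its other 2 probe sets gave 0.06 and 0.09. The differences of Jak1, Jak2 and Tyk2 were 0.12, 0.08 and 0.04, with adjusted p of 0.289, 0.373 and 0.667. These are transcript levels, and STAT3 phosphorylation was not measured.

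The inhibitors divided into 3 that rose and 2 that did not pass. Socs1, a suppressor that binds JAK kinases and is best known as a brake on interferon signalling, read 6.26, 6.12 and 6.30 against 5.52, 5.32 and 5.49. The arrays were separated by 0.60, a 1.72-fold increase (0.78, SE 0.08, adjusted p = 0.000439). As for Il6, the wild-type values lay under the array median, where a fold is less certain. Cish and Socs2 are inhibitors known chiefly as targets of STAT5 in growth hormone signalling. Cish read 8.89, 8.92 and 8.92 against 8.40, 8.69 and 8.52, a difference of 0.37 (SE 0.08, adjusted p = 0.0155). Without transgenic replicate 3 or wild-type replicate 3 the Cish call was lost, with an adjusted p of up to 0.0548, and it was lost without moderation of the variances (adjusted p = 0.0809). Socs2 read 9.06, 9.03 and 9.03 against 8.80, 8.88 and 8.77, a difference of 0.22 (SE 0.06, adjusted p = 0.0311), and its second probe set gave 0.22 as well (adjusted p = 0.111). The Socs2 call was lost without any 1 of 5 arrays (all but wild-type replicate 2), with an adjusted p of up to 0.104.

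Socs3, the STAT3-induced brake on gp130, did not pass. Its transgenic arrays read 10.45, 10.35 and 10.41 and its wild-type arrays 10.34, 10.43 and 10.54. They overlapped fully, with a difference of -0.03 and an interval of -0.19 to 0.13. The other 2 Socs3 probe sets gave -0.01 and -0.04. Pias1, which inhibits activated STAT proteins, gave 6.58 ± 0.03 against 6.59 ± 0.05 (SD, n = 3). The plot of pathway levels shows Il6, Lifr and Socs1 with the 3 widest gaps between genotypes among the 14 signalling genes.

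**Figure D1:**
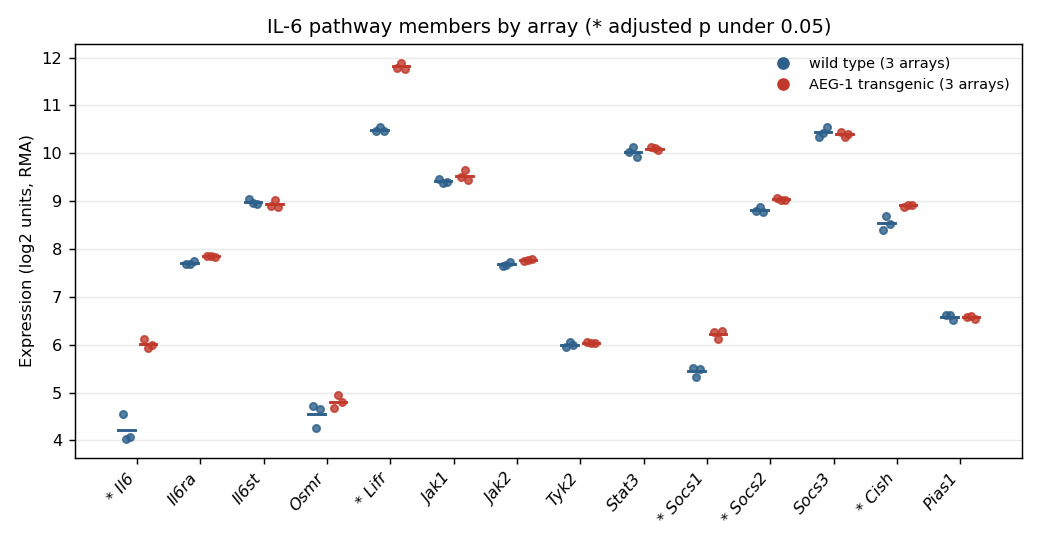
Expression of the 14 IL-6 pathway members in log2 units (RMA), with 1 point for each array, a bar at the mean of each genotype and an asterisk for an adjusted p under 0.05. Il6, Lifr and Socs1 stand clearly apart between genotypes, Socs2 and Cish by less, and Stat3 and Socs3 overlap.

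Positive acute phase proteins rose at 6 of 15 genes and fell at 0, with a median difference of 0.16 and a range from -0.02 to 0.78. The share of all genes called higher was 6.83%, with 11.9% at levels from 11 to 13 and 6.21% above 13. The 6 were Saa3, Orm3, Lbp, Fgl1, Crp and Hp, and 5 of them lay at or under a level of 13. Saa3 encodes the serum amyloid A that is also made outside the liver, in macrophages and fat. It read 9.79, 9.59 and 9.73 in transgenic and 8.96, 8.86 and 8.94 in wild-type arrays, separated by 0.63 and 1.72-fold higher (0.78, SE 0.07, adjusted p = 0.00027). The macrophage markers given beside Il6 apply here too, and their part was not tested.

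The liver serum amyloids Saa1 and Saa2, which circulate on high-density lipoprotein, gave smaller differences. Saa1 read 13.73, 13.72 and 13.74 against 13.58, 13.59 and 13.60, a difference of 0.14 (SE 0.05, adjusted p = 0.101). Saa2 read 13.23, 13.12 and 13.19 against 12.99, 13.02 and 13.05, a difference of 0.16 (adjusted p = 0.0888). Both sets of arrays were separated, by 0.12 and 0.08, but neither gene passed, and both lay above a level of 13. A second Saa1 probe set, also above 13, passed as higher at 0.23 (adjusted p = 0.0473 with every probe set tested). Saa1 and Saa2 are near-identical copies, as the promoters shown above are, and their probe sets can take up each other's transcripts, so their values are not independent. Saa4, which is made constitutively, gave 11.78 ± 0.03 against 11.78 ± 0.04 (SD, n = 3).

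The orosomucoids are plasma glycoproteins that bind drugs and dampen inflammation. Orm3 read 7.77, 7.56 and 7.61 against 7.16, 7.28 and 7.19, a difference of 0.44 (SE 0.07, adjusted p = 0.00555). Orm1, the major one, read 13.49, 13.44 and 13.49 against 13.38, 13.38 and 13.49, which overlap, with an interval of -0.07 to 0.19. Orm2 gave 8.75 ± 0.03 against 8.63 ± 0.13 (SD, n = 3) and did not pass (0.12, adjusted p = 0.312). The Orm genes are close relatives as well, and the Orm2 and Orm3 promoter windows were 85.9% identical.

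Lbp, the lipopolysaccharide-binding protein, read 10.34, 10.35 and 10.27 in transgenic and 10.00, 9.85 and 9.89 in wild-type arrays. It rose 1.32-fold (0.41, SE 0.06, adjusted p = 0.00349). Fgl1, a fibrinogen-like protein secreted by hepatocytes, read 12.13, 12.10 and 12.20 against 11.64, 11.82 and 11.85, a rise of 0.38 (SE 0.07, adjusted p = 0.00979). Both genes had separated arrays, by 0.27 and 0.26. The Fgl1 call was lost without moderation of the variances (adjusted p = 0.0565).

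The pentraxins Crp and Apcs recognise microbes and dying cells, and in the mouse Apcs, serum amyloid P, is the member that responds strongly to inflammation while Crp is a minor one. Crp read 13.04, 12.998 and 13.05 in transgenic and 12.70, 12.72 and 12.72 in wild-type arrays. It rose by 0.32 (SE 0.05, adjusted p = 0.0050), and the adjusted p stayed under 0.05 in each of 16 alternative fits. Apcs read 13.04, 13.01 and 13.06 against 13.04, 13.04 and 13.10. Its arrays overlapped, with a difference of -0.02 and an interval of -0.14 to 0.10, at a level above 13.

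Hp and Hpx encode haptoglobin and hemopexin, which clear free haemoglobin and haem. Hp read 13.67, 13.72 and 13.63 against 13.47, 13.46 and 13.46, a rise of 0.21 (SE 0.05, adjusted p = 0.0320). The Hp call was lost when any 1 of the 6 arrays was left out and after quantile normalization, with an adjusted p of up to 0.103. Hpx read 14.04, 14.03 and 14.05 against 13.93, 13.92 and 13.95, separated but not past the threshold (0.11, adjusted p = 0.210). Lcn2, the iron-siderophore binding lipocalin, gave 12.31 ± 0.01 against 12.28 ± 0.07 (SD, n = 3), with an interval of -0.11 to 0.16. Lcn2 is also a neutrophil granule protein, and all 8 measured neutrophil markers lay under the median gene with 0 past the threshold (0 by limma, 0 at an unadjusted p under 0.05).

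The inter-alpha-trypsin inhibitor heavy chains were read at 4 genes. Among positive acute phase chains, Itih4 read 13.21, 13.22 and 13.15 against 12.97, 13.06 and 12.98 and missed the threshold narrowly (0.19, adjusted p = 0.0554). Itih3 gave 12.82 ± 0.07 against 12.68 ± 0.03 (SD, n = 3; 0.14, adjusted p = 0.162). Itih2, a negative acute phase chain, read 12.19, 12.22 and 12.12 against 11.93, 11.92 and 11.87 and rose by 0.27 (SE 0.06, adjusted p = 0.0147). Itih1, which belongs to neither group here, read 11.66, 11.71 and 11.59 against 11.41, 11.44 and 11.34 and rose by 0.26 (SE 0.06, adjusted p = 0.0229). All 4 chains had higher values on every transgenic array than on any wild-type array, as had 16.9% of all genes. The calls of Itih1 and Itih2 were each lost without transgenic replicate 1, transgenic replicate 2 or wild-type replicate 3, with adjusted p of up to 0.0798 and 0.0573.

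Negative acute phase proteins, which fall in a full response, rose at 3 of 5 genes and fell at 0, against 6.83% of all genes higher. Their median difference was 0.21, with a range from 0.01 to 0.28. Fetub, fetuin B, an inhibitor of a protease of the egg coat, read 11.65, 11.65 and 11.61 in transgenic and 11.38, 11.36 and 11.33 in wild-type arrays. It rose 1.21-fold (0.28, SE 0.05, adjusted p = 0.00888), and the adjusted p stayed under 0.05 in each of 16 alternative fits. Ahsg, fetuin A, which keeps calcium phosphate in solution, read 13.34, 13.38 and 13.31 against 13.15, 13.16 and 13.10, a rise of 0.21 (SE 0.05, adjusted p = 0.0325). The Ahsg call was lost when any 1 of the 6 arrays was left out, with an adjusted p of up to 0.103. Of the 5 genes 1 rose without transgenic replicates 1 or 2 or wild-type replicate 3, where Itih2 also missed the threshold.

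Alb, serum albumin, read 14.72, 14.69 and 14.71 in transgenic and 14.69, 14.70 and 14.70 in wild-type arrays. They overlap, with a difference of 0.01 and an interval of -0.11 to 0.13. The level of 14.70 lies close to 14.99, the highest value in the table, where a change in RNA is least visible. Ambp, the precursor of bikunin, read 13.52, 13.49 and 13.51 against 13.45, 13.49 and 13.46, a difference of 0.04 (adjusted p = 0.636).

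Of the remaining secreted genes, Azgp1 read 13.64, 13.62 and 13.65 against 13.57, 13.56 and 13.61, a difference of 0.06 (adjusted p = 0.539). A2m, an alpha-2-macroglobulin, was dim at this array's probe set, with 5.40, 5.41 and 5.39 against 4.95, 4.83 and 4.79. It rose by 0.55 (SE 0.06, adjusted p = 0.000805), with values under the array median on every array of both genotypes.

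Positive and negative acute phase proteins were thus read side by side in the same cells. On each array the median shift of the 15 positive genes from their wild-type means was 0.15 to 0.20 in transgenic and -0.01 to 0.01 in wild-type cells. For the 5 negative genes it was 0.18 to 0.25 and -0.03 to 0.01, so the transgenic arrays lay above the wild-type arrays in both groups. The positive median minus the negative median was -0.05, next to a standard deviation of 0.030 between arrays of a genotype, and was not tested. With A2m and Saa4 counted as positive and Azgp1 and Itih1 as negative, the rises were 7 of 17 and 4 of 7. Over all genes the share called higher was 6.83%. The plot of secreted members shows the 2 groups on the same side of 0.

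**Figure D2:**
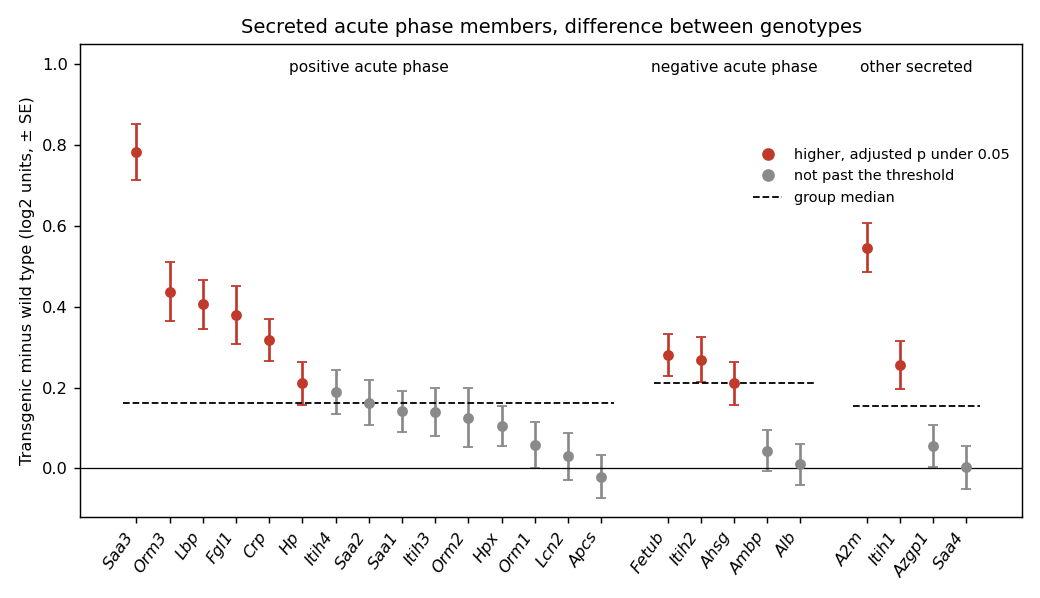
Difference between genotypes (log2 units, transgenic minus wild type, with its SE) for the 24 secreted members, in 3 groups with a dashed line at the median of each. Filled red points passed the threshold; 6 of 15 positive, 3 of 5 negative and 2 of 4 other proteins are red, and 0 are lower.

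Differences were small at the brightest probe sets. Of 11 members above 13, 2 rose (Hp and Ahsg), with a median difference of 0.11, while of 13 secreted members at or under 13, 9 rose, with a median of 0.28. The 14 signalling members, all under 13, had 5 rises and a median of 0.13, which lies between the medians of the other groups. Among all 145 genes above 13, 6.21% were called higher and 6.21% lower, and the median size of a difference was 0.06, against 0.09 to 0.12 in the bins below. Of all genes at levels from 11 to 13, 11.9% were called higher, and of those from 9 to 11, 11.3%. The largest difference above 13 was 0.50 in size. Members above 13 thus sit where differences were small over all genes, and how much of that is compression of bright signal was not tested. The plot of difference against level places each member among all genes.

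**Figure D3:**
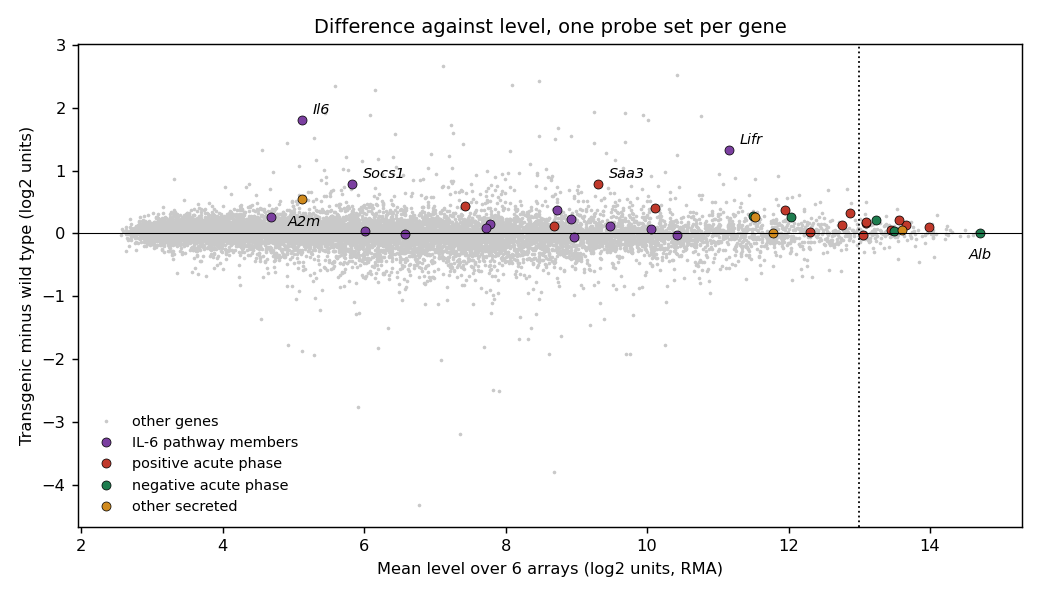
Difference between genotypes against mean level (both log2 units) for 12393 genes, with members coloured by role and a dotted line at 13. Il6 and Lifr stand near the top of the cloud, while members right of the line lie between -0.02 and 0.21.

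Probe sets of a gene did not always move together. Of the 38 genes 12 had several probe sets, and 18 of the 56 probe sets of members passed as higher and 0 as lower, where 5.56% and 7.05% of all 20380 probe sets did. Lifr, Il6st, Saa1 and Socs2 were the 4 genes with some probe sets past the threshold and others not, and of these the Socs2 pair was alike in size.

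**Figure D4:**
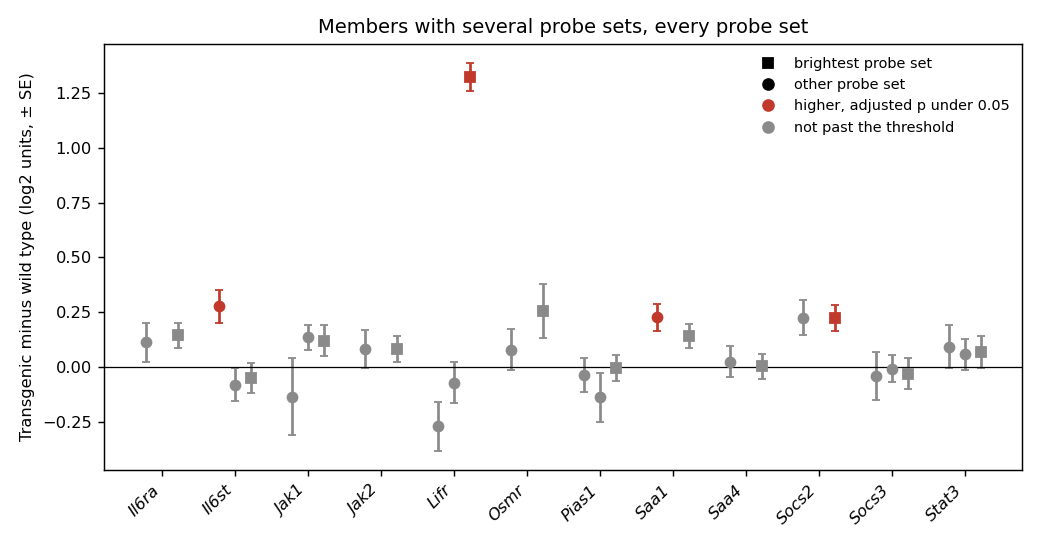
Difference between genotypes (log2 units, with its SE) at every probe set of the 12 members that have several, ordered by level within a gene, with a square for the brightest. For Lifr the brightest probe set gives 1.32 and the others -0.07 and -0.27, while the 3 Stat3 and the 3 Socs3 probe sets lie near 0.

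Genes beyond the 38 were read from lists of the same pathway. Of 7 measured gp130 cytokines and receptors 0 passed (0 by limma, 2 at an unadjusted p under 0.05). The 2 were the ligands Ctf1 (-0.23, adjusted p = 0.0783) and Clcf1 (0.21, adjusted p = 0.167). Of 18 other JAK-STAT components 2 rose and 1 fell, which is 16.7% called and close to the 15.9% of all genes. Stat2, a mediator of type I interferon signalling, rose by 0.38 (SE 0.05, adjusted p = 0.0028). Its wild-type values lay under the array median, where a fold is less certain. Ptpn1, a phosphatase that acts on JAK2 and TYK2, rose by 0.29 (adjusted p = 0.0296). Ptpn2, a phosphatase of JAK1 and STAT proteins, fell by 0.36 at its brightest probe set (adjusted p = 0.00695), but the mean of its probe sets gave 0.11. Ptpn11, a phosphatase recruited to gp130, gave 0.21 (adjusted p = 0.0660). The Ptpn1 call was lost without moderation (adjusted p = 0.0964) and without transgenic replicates 1 or 3 or wild-type replicates 2 or 3 (adjusted p of up to 0.0979).

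Among inflammatory cytokines and receptors outside the gp130 family, 4 of 11 rose and 1 fell, 45.5% called against 15.9% of all genes. The macrophage cytokine Il10 rose by 0.79 (SE 0.10, adjusted p = 0.00169), Il1b by 0.51 (SE 0.09, adjusted p = 0.00818) and Il1r1, the IL-1 receptor, by 0.28 (adjusted p = 0.0241). Il1a was the fourth, at 0.71 (adjusted p = 0.0279, and up to 0.162 with a replicate left out or without moderation). The Il1b call was lost without moderation (adjusted p = 0.0718). Il10 and Il1a lay under the array median on every array of both genotypes, and Il1b on the wild-type arrays and transgenic replicate 2. Il18 fell by 0.34 (SE 0.05, adjusted p = 0.00383). The Il1r1 call was lost without moderation (adjusted p = 0.0730) and without transgenic replicates 1 or 2 or wild-type replicates 2 or 3, with adjusted p of up to 0.0852, and the Il1a call without transgenic replicates 1 or 3 or wild-type replicates 2 or 3.

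Transcription factors and targets downstream of STAT3 and C/EBP moved in both directions, with 5 of 19 risen and 6 fallen. That is 57.9% called, against 15.9% of all genes. The list had a median level of 9.52, and all genes at levels from 7 to 9 and 9 to 11 had 27.1% and 26.9% called. Bcl6, a transcriptional repressor, rose 1.79-fold, at 7.68 ± 0.11 against 6.84 ± 0.07 (SD, n = 3; 0.84, SE 0.07, adjusted p = 0.000251). The metalloreductase Steap4 rose by 0.49 (SE 0.06, adjusted p = 0.00148) and the AP-1 subunit Fosl2 by 0.42 (SE 0.05, adjusted p = 0.0015). Cebpd, the C/EBP factor induced early in the acute phase response, went the other way, at 8.15 ± 0.03 against 8.62 ± 0.06 (SD, n = 3; -0.47, SE 0.06, adjusted p = 0.00139), and the mean of its probe sets gave -0.31. Of its relatives, Cebpb gave 0.24 and Cebpa -0.25, and both passed (adjusted p = 0.0259 and 0.0187). Outside the 4 with the smallest p, the others called were Bcl3 (0.31), Nfil3 (-0.53), Fos (-0.32), Gadd45g (-0.29) and Pim1 (-0.28). The calls of Cebpa, Cebpb, Gadd45g and Pim1 were each lost when some single arrays were left out (transgenic replicates 1 and 2 and wild-type replicate 2 for all 4), with adjusted p of up to 0.121. Pim1 was also lost with the mean of its probe sets (-0.11, adjusted p = 0.256), without moderation and with quantile or median scaling, and Gadd45g with array weights and without moderation (adjusted p = 0.0572 and 0.131). Without any 1 of those 3 arrays 3 genes of the list fell.

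**Figure D5:**
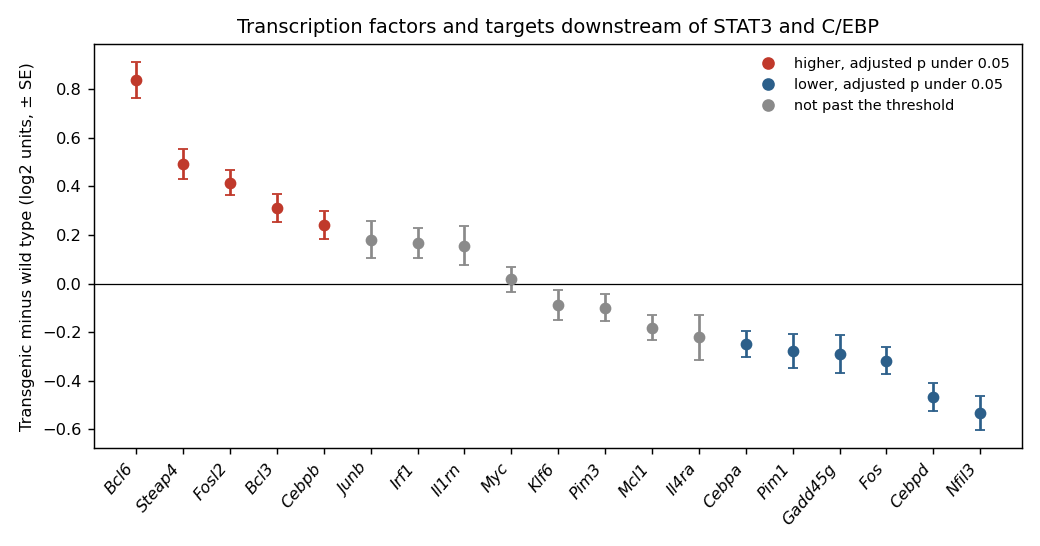
Difference between genotypes (log2 units, with its SE) for the 19 transcription factors and targets downstream of STAT3 and C/EBP, ordered by size. Bcl6, Steap4, Fosl2, Bcl3 and Cebpb are higher, and Nfil3, Cebpd, Fos, Gadd45g, Pim1 and Cebpa lower.

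Further acute phase proteins were read from the same arrays. Of 14 further positive ones 3 rose and 0 fell, with a median of 0.12 and 21.4% called, against 15.9% of all genes. Serpina3n, a serine protease inhibitor, rose by 0.57 (SE 0.06, adjusted p = 0.000937), Serpina10 by 0.33 (adjusted p = 0.00384) and the mannose-binding lectin Mbl2 by 0.25 (adjusted p = 0.0160). The fibrinogen chains Fga, Fgb and Fgg, classic targets of IL-6, gave 0.14, 0.06 and 0.05, all above a level of 13 and none past the threshold (0 of 3, named after their values were seen). Mbl2 was lost without transgenic replicates 1 or 3 or wild-type replicate 2 (adjusted p of up to 0.0556). Of 10 further negative ones 3 rose and 1 fell, with a median of 0.04 and 40% called, against the same share. Both further lists were bright, with median levels of 12.84 and 12.90. All genes at levels from 11 to 13 had 24.9% called, and those above 13 had 12.4%. The lipoprotein component Apom rose by 0.38 (adjusted p = 0.00383), Igfals, a carrier of insulin-like growth factors, by 0.29 (adjusted p = 0.0192) and Serpina6, the corticosteroid carrier, by 0.33 (adjusted p = 0.0212). F12, the contact factor, fell from 11.26 ± 0.02 to 10.50 ± 0.05 (SD, n = 3; -0.75, SE 0.05, adjusted p = 8.58e-05). The Igfals and Serpina6 calls were lost without transgenic replicates 1 or 2 or wild-type replicate 3, and Igfals also without wild-type replicate 2 and Serpina6 also without wild-type replicate 1 (adjusted p of up to 0.0673 and 0.0743). Both were lost without moderation (adjusted p = 0.0614 and 0.0894).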

How the data were processed

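Per the submitters' processing notes, the authors used RMA and Affymetrix Expression Console, and the deposited table holds 1 log2 value for each probe set and array. RMA subtracts background, equalises the distributions between arrays and summarises probes, so values show change relative to other genes, and differences shrink near background and near saturation. Software versions are not given. Arrays have no read depth, and their number limits the precision.

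Of 22690 probe sets, 64 were controls, 20380 had 1 symbol in GEO's platform annotation, 691 had several and 1555 had none. Only those with 1 symbol were used, the brightest per gene, which gave 12393 genes. All 38 symbols matched the RefSeq gene table of GRCm38.p6, used for names only.

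Genotypes were compared with limma 3.58.1 in R 4.3.3 (lmFit and eBayes, two-sided; Python 3.11.15, pandas 2.3.3 and matplotlib 3.10.9 for tables and plots), and p-values were adjusted over the 12393 genes by Benjamini-Hochberg and called under 0.05. The procedure was tested on simulated data. Lists have counts and medians only, with no test. The members, their roles and the lists were chosen with earlier results of these data known, and the promoter patterns after the values were seen. Genes named are all members, up to 4 with the smallest p of each further list, and Mtdh, with others added after their values were seen. Alternatives covered probe set choice, a filter on dim genes, scaling, the variance prior, array weights, moderation, a replicate block, grouping, thresholds and leaving out each array. Labels give no batch.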

Additional observations from a re-analysis of the deposited data

How the results depend on the processing

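Over the alternative settings no member was called lower (0 throughout). Il6, Lifr, Socs1, Saa3, Orm3, Crp, Lbp, Fetub and A2m kept an adjusted p under 0.05 in every fit that tested them. Of these, only Il6, Lifr, Socs1 and Saa3 also reached 1.5-fold, and the Lifr difference was 0.33 with the mean of its probe sets. Of the 16 risen members, 10 to 14 remained with 1 array left out, and 10 at an adjusted p under 0.01, while 4 also reached 1.5-fold. With a variance trend 21 members rose, 11 of them positive acute phase proteins. Some members that did not pass in the main fit passed in others. Of 16 alternative fits, Saa1 passed in 5, Itih4 in 4, Il6ra and Hpx in 2 each and Itih3 in 1, and Saa2 in 2 of 15. Leaving out cross-matching probe sets dropped Saa2, which has no other probe set, and moved Saa1 to its second. Over the genes left, the positive median was 0.20 and the positive minus negative median -0.011. Without moderation 1271 genes passed (560 higher, 711 lower), against 1967 (846 and 1121), and 1 further JAK-STAT component, 1 inflammatory and 1 further negative acute phase gene rose. With the mean of probe sets 1 further gp130 gene rose, 0 further JAK-STAT components fell, and Ptpn2 reversed to 0.11. Among genes above the median level 1 further gp130 gene fell, 1 inflammatory gene rose and 6 further positive genes rose, with fewer genes tested. With the variance trend 1 further gp130 gene fell and 9 further positive genes rose.

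With 1 array left out, 1267 to 1700 genes passed, 540 to 739 higher and 727 to 961 lower. Leaving out transgenic replicate 1 gave the lowest counts, transgenic replicate 3 gave 741 lower genes, and without wild-type replicate 3 the members that rose numbered 10. Negative acute phase rises ranged from 1 to 2 (1 without transgenic replicates 1 or 2 or wild-type replicate 3), the positive minus negative median from -0.070 to -0.017, further JAK-STAT rises from 1 to 2, downstream falls from 3 to 5, inflammatory rises from 2 to 4 and further negative rises from 1 to 3. The causes were not tested.

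Transgenic and wild-type samples share only a replicate number: deviations of same-numbered arrays correlated at -0.01, -0.01 and 0.10. With the replicate block 1505 genes passed (640 higher, 865 lower) and 13 members rose, without Socs2, Hp and Ahsg. The block also ended the calls of Cebpa and Cebpb. Signal near background limits Il6, Osmr, Socs1 and A2m, and bright signal limits the 11 members above 13.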
